A study of Mus musculus with 38 samples.

Results

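The S100 proteins are small calcium-binding proteins, and 10 of their genes were followed here across tumor progression and across chemotherapy in a mouse breast cancer model. They are S100a1, S100a3, S100a4, S100a5, S100a6, S100a10, S100a11, S100a13, S100a14 and S100a16. They were taken by gene name from the array files, each was read by 1 probe, and they are 10 of the 28786 genes tested. Tumors grew from hyperplasias of MMTV-PyMT;actin-GFP mice that were placed in cleared mammary fat pads of FVB/n hosts. In MMTV-PyMT mice the promoter of mouse mammary tumor virus drives polyoma middle T, GFP is driven by an actin promoter, and all groups carry both transgenes. GFP-positive cells were sorted and their RNA, in Cy5, was set against a Cy3-labeled Universal mouse reference on Agilent two-color arrays. The progression experiment holds 5 Adenoma arrays from early outgrowths, 6 Carcinoma arrays from late outgrowths, 6 arrays of Disseminated cells from the lungs of mice with late outgrowths, and 5 Metastases arrays from lungs after removal of the primary tumor. Lungs of several mice were pooled for each sample of disseminated cells. The chemotherapy experiment holds 6 untreated tumors, labeled Control, 6 residual tumors, labeled Regressed tumor, and 4 relapsed tumors, labeled Resistant tumor. Treatment with docetaxel, doxorubicin and cyclophosphamide began 2 months after transplantation, and per the study's methods residual tumors were taken after the first dose and relapsed tumors after the fourth. The ages of the hosts at sampling are not given in the labels. The labels do not say whether replicates came from separate mice, so p-values measure the spread between these samples.

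S100 proteins carry a pair of EF-hand calcium-binding loops, act mostly as dimers, and change shape on binding calcium so that they can grip a target protein. Several are also released from cells and bind receptors such as Ager (RAGE) and Tlr4. S100a4, also called metastasin or fibroblast-specific protein, is known in breast cancer for its link with metastasis and is made by tumor cells, macrophages and fibroblasts. S100a10 is the partner of annexin A2 at the cell surface, and S100a14 and S100a16 are found mainly in epithelia.

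All 10 genes lie on mouse chromosome 3, in the gene cluster that also holds genes of epidermal differentiation. In build GRCm38.p6 of the RefSeq table, S100a4 occupies positions 90603770 to 90606045, S100a5 starts 434 bases beyond its end and S100a6 1109 bases beyond the end of S100a5. S100a11 and S100a10 stand apart from the other members, 2906081 bases beyond S100a6. S100a1 and S100a13 run in opposite directions and their annotated spans overlap by 98 bases. The array files place the S100a4 probe at chr3:90736122-90736182 on the plus strand of build mm7, and the probe positions cannot be set against the GRCm38.p6 ones.

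The RefSeq promoter table (GRCm38.p6, 300 bases each, most of them ahead of a transcript start) holds windows for 8 of the 10 members, and S100a10 and S100a14 have no entry. The windows of 4 members are shown because these genes carry the results: S100a4 rose in disseminated cells, S100a6 and S100a11 fell in metastases, and S100a13, whose window shares 204 bases with that of S100a1, fell in disseminated cells together with it. Capitals mark matches on either strand to the TATA box (TATAAA), the GC box (GGGCGG), the AP-1 site (TGANTCA), the E-box (CANNTG) and the CCAAT box (CCAAT), none of which overlap each other in these windows.
S100a4 (chr3:90603520-90603819, plus strand): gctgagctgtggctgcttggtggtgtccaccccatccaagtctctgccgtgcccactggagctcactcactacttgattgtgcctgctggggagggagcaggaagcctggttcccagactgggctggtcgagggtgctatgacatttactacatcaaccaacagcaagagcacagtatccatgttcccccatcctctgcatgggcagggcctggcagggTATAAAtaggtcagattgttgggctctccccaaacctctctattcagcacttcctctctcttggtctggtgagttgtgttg
S100a6 (chr3:90612644-90612943, plus strand): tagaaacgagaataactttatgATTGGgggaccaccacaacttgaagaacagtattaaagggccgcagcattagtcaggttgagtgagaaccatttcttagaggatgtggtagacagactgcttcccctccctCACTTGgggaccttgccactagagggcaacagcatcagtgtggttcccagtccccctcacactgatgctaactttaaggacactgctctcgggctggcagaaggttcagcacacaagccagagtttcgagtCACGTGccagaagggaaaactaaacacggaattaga
S100a11 (chr3:93520246-93520545, plus strand): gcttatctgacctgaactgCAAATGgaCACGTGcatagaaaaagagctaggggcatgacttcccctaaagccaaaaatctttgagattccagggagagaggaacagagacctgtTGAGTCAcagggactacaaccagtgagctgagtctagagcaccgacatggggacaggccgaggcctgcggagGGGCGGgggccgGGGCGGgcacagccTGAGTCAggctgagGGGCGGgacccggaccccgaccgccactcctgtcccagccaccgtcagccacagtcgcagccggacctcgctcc
S100a13 (chr3:90514185-90514484, plus strand): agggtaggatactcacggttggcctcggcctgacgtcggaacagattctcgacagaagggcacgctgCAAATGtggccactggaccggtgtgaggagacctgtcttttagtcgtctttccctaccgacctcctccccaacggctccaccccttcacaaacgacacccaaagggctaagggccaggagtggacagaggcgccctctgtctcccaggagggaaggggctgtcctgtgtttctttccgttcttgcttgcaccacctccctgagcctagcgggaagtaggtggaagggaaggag
The TATA box was matched in windows of 2 members, S100a4 and S100a3, and in 13.6% of all 32851 windows of 300 bases. The GC box was matched in 3 members, S100a3, S100a11 and S100a16, against 35.7% of all windows. The AP-1 site was matched in 2 members, S100a11 and S100a16, against 7.81% of all windows. The E-box was matched in 6 members against 72.3% of windows, and the CCAAT box in 3 members against 37.4%. S100a3 has 4 windows and S100a16 has 2, which gives these genes more letters in which to match. The matches describe the letters of the windows and no binding was measured here.

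Values are log2 ratios of tumor to reference RNA, so a gene's value is compared between groups and never with that of another gene. The cells on the progression arrays differed in more than stage. The mean log2 ratio of a list of 8 macrophage genes lay between -0.56 and -0.13 in adenomas, between -0.79 and 0.14 in 5 of the 6 carcinomas and at 4.56 in carcinoma replicate 6. It lay between 3.13 and 4.90 in disseminated cells and between 0.59 and 5.06 in metastases. The mean of 7 luminal mammary genes lay between 2.27 and 3.19 in adenomas, from 2.71 to 3.31 in the same 5 carcinomas and at 1.64 in carcinoma replicate 6. In disseminated cells it ran from -0.97 to 3.04, and in metastases it was -0.67 in replicate 4 and between 2.68 and 4.28 in the others. Of the lung lists, 6 of 6 alveolar macrophage genes were called higher in disseminated cells than in adenomas, and of 7 lung epithelium genes 4 were higher and 1 lower. Of all genes 4.64% were called higher in this comparison and 5.85% lower. In such sorted bulk samples fewer cells of a type and less RNA per cell cannot be told apart. Adenomas and disseminated cells shared 3 slides and carcinomas and metastases shared 3 others, scanned on another day, so that only disseminated cells against adenomas and metastases against carcinomas can be compared within slides. In every other pair, slide and scan day cannot be told apart from the groups. All 10 members were well above background on every progression array, and none was saturated.

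**Figure D1:**
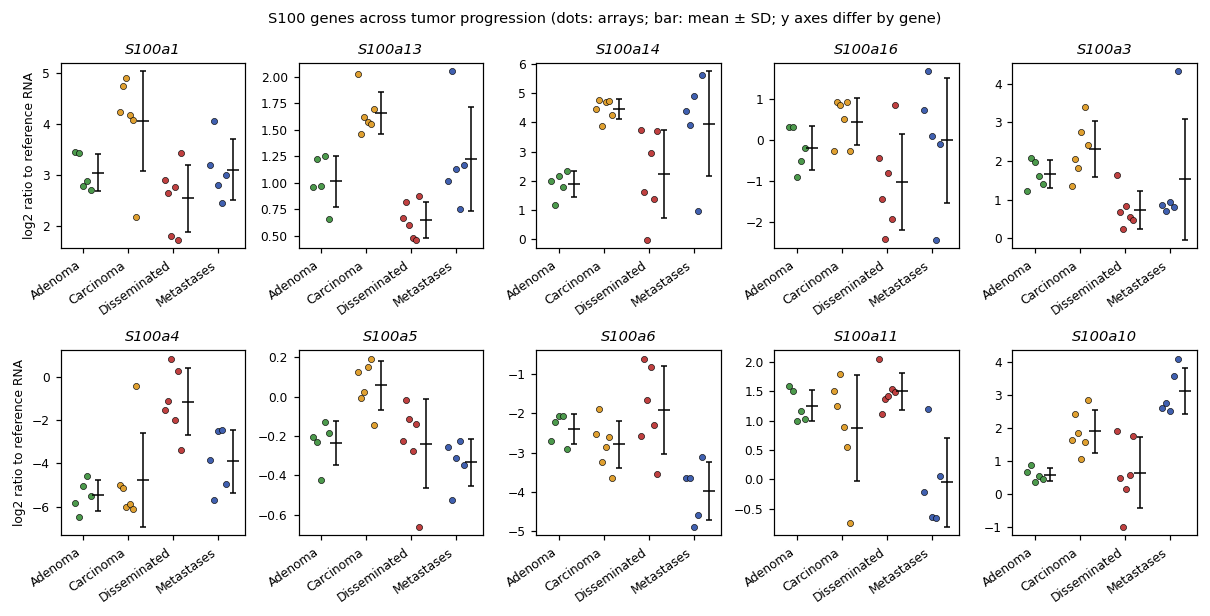
Log2 ratio of each of the 10 S100 genes to the reference RNA (y axis, scaled separately for each gene) on each progression array (dots), grouped as Adenoma (n = 5), Carcinoma (n = 6), Disseminated (n = 6) and Metastases (n = 5), with the mean ± SD beside each group. S100a4 lies between -6.49 and -4.57 in adenomas and between -3.39 and 0.86 in disseminated cells, with 1 carcinoma at -0.42 far above the other 5.

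S100a4 was higher in disseminated cells than in either primary stage, and its levels varied more between arrays than those of any other member in carcinomas. Calls required both an adjusted p under 0.05 and a 2-fold difference or more. In adenomas S100a4 stood at -5.82, -6.49, -5.02, -4.57 and -5.50. In carcinomas it ranged from -6.10 to -0.42 with a median of -5.50. The value of -0.42 belongs to replicate 6, and the other 5 carcinomas lay at or below -5.01, within the range of the adenomas. In disseminated cells S100a4 ranged from -3.39 to 0.86 with a median of -1.31. In metastases it stood at -3.86, -5.70, -2.48, -2.47 and -4.97. Disseminated cells all lay above every adenoma, whereas metastases spread over the space between the primary tumors and the disseminated cells. From adenomas to disseminated cells S100a4 rose 20.2-fold (log2 change 4.34, SE 0.925, adjusted p = 0.00374, limma). Of all genes 10.5% were called in this comparison, and S100a4 was the 1 member of 10 that was. By direction, 4.64% of all genes were called higher and 5.85% lower. Within slides the change was 4.36 (SE 1.01, adjusted p = 0.00593). Against carcinomas S100a4 rose 12.2-fold in disseminated cells (log2 change 3.61, SE 0.882, adjusted p = 0.00532). Without carcinoma replicate 6 that change was 4.49 (adjusted p = 9.22e-05). Metastases were 6.75-fold lower than disseminated cells without passing the threshold (log2 change -2.75, SE 0.925, adjusted p = 0.0545). That comparison changed side with the processing: it passed with dim probes left out, a normexp offset of 0, the deposited log2 ratios, Aquantile, or arrays not normalized to each other (adjusted p between 0.0361 and 0.0494), as well as without metastases replicate 4 (log2 change -3.12, adjusted p = 0.0395) and without disseminated replicate 6 (log2 change -3.23, adjusted p = 0.018). Metastases against adenomas (log2 change 1.58, adjusted p = 0.237) and metastases against carcinomas (log2 change 0.86, adjusted p = 0.577) did not pass either, nor did carcinomas against adenomas (log2 change 0.73, adjusted p = 0.66), a change that was -0.15 without carcinoma replicate 6. In the order disseminated cells, metastases, carcinomas, adenomas, no neighbors differed past the threshold.

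S100a4 and the macrophage genes were both high in disseminated cells. Carcinoma replicate 6, with the highest S100a4 value of its group, had a macrophage list mean of 4.56 where the other carcinomas did not exceed 0.14. In metastases the list stood at 3.21, 0.59, 4.2, 5.06 and 0.78 in the order of the S100a4 values above. The 3 metastases with the higher list values were the 3 with the higher S100a4 values. Among disseminated cells the list stood at 4.90, 3.78, 3.89, 3.13, 4.41 and 3.92 in replicates 1 to 6. S100a4 stood at -1.51, -1.11, 0.86, -1.97, 0.28 and -3.39 on the same arrays. All 8 macrophage genes were called higher in disseminated cells than in adenomas and 7 of 8 higher than in carcinomas, against 4.64% and 5.48% of all genes. Itgam was not well above background on any adenoma array. The part of macrophage RNA in the S100a4 result was not tested. The list of 9 fibroblast genes, another cell type known for S100a4, averaged -2.73 ± 1.01 (SD, n = 6) in disseminated cells, -2.23 ± 0.54 (SD, n = 5) in adenomas and -3.20 ± 0.59 (SD, n = 6) in carcinomas. Of its genes 0 were called higher and 1 lower in disseminated cells than in adenomas, where 4.64% of all genes were called higher and 5.85% lower. Against carcinomas 0 were called, where 11.6% of all genes were. All 9 had a higher mean in disseminated cells than in carcinomas, as did 39.4% of all genes. The part of fibroblast RNA was not tested. The genes most like S100a4 over the 22 progression arrays were Snx20 (Pearson r = 0.981), Rasa3 (r = 0.976) and Ncf4 (r = 0.975), among 13816 genes above background on every array. These correlations describe arrays that share the reference RNA and fall into groups, so no test goes with them.

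**Figure D2:**
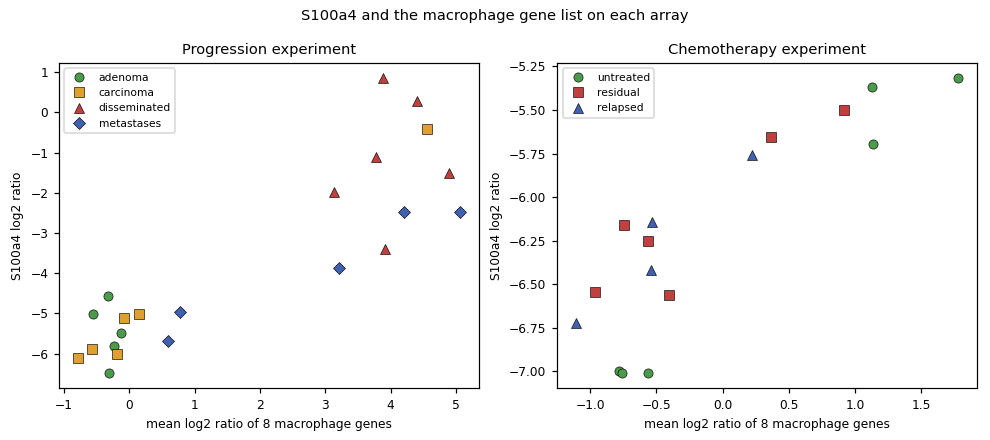
S100a4 log2 ratio (y axis) against the mean log2 ratio of 8 macrophage genes (x axis) on each array, in the progression experiment (left, 22 arrays) and the chemotherapy experiment (right, 16 arrays), with a marker shape and color for each group. Carcinoma replicate 6 (4.56, -0.42) lies among the disseminated cells, and the untreated tumors of the right panel form 2 sets of 3.

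S100a3 and S100a5 lie on either side of S100a4. S100a3, a cysteine-rich member known from hair, stood at 1.24, 2.08, 1.97, 1.62 and 1.40 in adenomas and between 1.37 and 3.40 in carcinomas, with a median of 2.23. In disseminated cells it ranged from 0.24 to 1.64 with a median of 0.61, and 5 of the 6 arrays lay below every carcinoma. It fell 2.96-fold from carcinomas to disseminated cells (log2 change -1.57, SE 0.487, adjusted p = 0.0222), where 11.6% of all genes were called. Leaving out carcinoma replicate 5 ended this call (log2 change -1.34, adjusted p = 0.0593). In metastases S100a3 stood at 0.87, 0.70, 0.93, 0.82 and 4.31. Replicate 5 is the exception among the metastases, and without it the change from carcinomas, -0.77 (adjusted p = 0.314) with all arrays, was -1.47 (adjusted p = 0.00264). S100a5, known from olfactory neurons, moved least: its group means ran from -0.33 in metastases to 0.06 in carcinomas. It stood at -0.25, -0.53, -0.31, -0.22 and -0.35 in metastases and between -0.14 and 0.19 in carcinomas, with a median of 0.08. Metastases lay below every carcinoma for S100a5, by a log2 change of -0.39 that passed the test but not the 2-fold limit (adjusted p = 0.00839).

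S100a6 and S100a11 fell in metastases. S100a6, or calcyclin, binds the ubiquitin ligase component Cacybp, and S100a11, or calgizzarin, binds annexin A1. S100a6 stood at -2.71, -2.21, -2.08, -2.07 and -2.91 in adenomas and ranged from -3.66 to -1.89 in carcinomas, with a median of -2.72. In disseminated cells it ranged from -3.55 to -0.60 with a median of -1.98, and in metastases it stood at -3.66, -3.65, -4.90, -4.59 and -3.11. All metastases lay below every adenoma. S100a6 fell 3.01-fold from adenomas to metastases (log2 change -1.59, SE 0.47, adjusted p = 0.0159), where 14.6% of all genes were called. It was 4.2-fold lower in metastases than in disseminated cells (log2 change -2.07, SE 0.45, adjusted p = 0.00509), where 7.11% of all genes were called. That call ended when only the 2 groups entered the fit (adjusted p = 0.0607). Against carcinomas the change of -1.19 missed the threshold (adjusted p = 0.0649) and passed with slide as a block (log2 change -1.21, adjusted p = 0.0371).

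S100a11 stood at 1.58, 1.5, 1.0, 1.16 and 1.03 in adenomas, ranged from -0.74 to 1.78 in carcinomas with a median of 1.07, and from 1.11 to 2.05 in disseminated cells with a median of 1.46. In metastases it stood at -0.21, 1.20, -0.64, -0.65 and 0.06. All metastases but replicate 2 lay below every adenoma and every disseminated sample. S100a11 fell 2.47-fold from adenomas to metastases (log2 change -1.30, SE 0.382, adjusted p = 0.0151), a call that ended at -0.97 in the deposited log2 ratios. It was 2.92-fold lower in metastases than in disseminated cells (log2 change -1.55, SE 0.366, adjusted p = 0.00861). Against carcinomas the change was -0.92 (adjusted p = 0.0792) with carcinoma replicate 6 at -0.74, and -1.25 (adjusted p = 0.00433) without that replicate.

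S100a10 went the other way and was highest in metastases. S100a10, or p11, forms a tetramer with annexin A2 that binds plasminogen activators at the cell surface, and unlike other S100 proteins it does not need calcium to bind. It stood at 0.65, 0.88, 0.37, 0.54 and 0.45 in adenomas, ranged from 1.07 to 2.85 in carcinomas with a median of 1.74 and from -1.0 to 1.93 in disseminated cells with a median of 0.52. In metastases it stood at 2.62, 2.76, 2.51, 3.58 and 4.11. All metastases lay above every adenoma and every disseminated sample. S100a10 rose 5.81-fold from adenomas to metastases (log2 change 2.54, SE 0.453, adjusted p = 0.000433). It was 5.52-fold higher in metastases than in disseminated cells (log2 change 2.46, SE 0.433, adjusted p = 0.00123). Carcinomas also lay above every adenoma, by 2.50-fold, but missed the threshold (log2 change 1.32, SE 0.433, adjusted p = 0.0525). Disseminated cells were 2.38-fold lower than carcinomas (log2 change -1.25, SE 0.413, adjusted p = 0.0304). That call ended without carcinoma replicate 2 or 6 or without disseminated replicate 2, 3, 4 or 5, at changes between -1.23 and -0.92. It also ended with Aquantile, arrays not normalized to each other, the deposited log2 ratios, or only the groups compared. Metastases against carcinomas stood at the threshold, with a log2 change of 1.21 (adjusted p = 0.0503), and passed within slides (log2 change 1.23, adjusted p = 0.0461). Between disseminated cells and metastases S100a10 thus changed in the opposite direction to S100a6 and S100a11, the other members called there.

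S100a14 rose from adenoma to carcinoma. It is an epithelial S100 protein whose C-terminal EF-hand lacks residues for calcium binding. It stood at 1.99, 1.16, 2.15, 1.79 and 2.32 in adenomas and ranged from 3.88 to 4.77 in carcinomas, with a median of 4.58. The groups did not overlap. S100a14 rose 5.99-fold (log2 change 2.58, SE 0.688, adjusted p = 0.0208) and was the 1 member of 10 called in this comparison, where 3.31% of all genes were called. Leaving out adenoma replicate 2, the lowest, ended the call (log2 change 2.42, adjusted p = 0.0573). In disseminated cells S100a14 ranged from -0.02 to 3.74 with a median of 2.28, below every carcinoma, and it fell 4.71-fold (log2 change -2.24, SE 0.656, adjusted p = 0.0162). In metastases it stood at 4.38, 3.90, 4.90, 0.96 and 5.63. It rose 4.2-fold from adenomas to metastases (log2 change 2.07, SE 0.718, adjusted p = 0.0363). That call ended when any of adenoma replicates 1 to 4 or metastases replicates 1, 2, 3 or 5 was left out, at changes between 1.66 and 2.14, while without metastases replicate 4 it was 2.82 (adjusted p = 0.00218). Metastases replicate 4 had a luminal list mean of -0.67, and disseminated replicate 3, with S100a14 at -0.02, had one of -0.97. The adenomas, low in S100a14, had luminal means of 2.27 to 3.19, and disseminated replicate 1, with S100a14 at 3.74, had one of 1.27. The part of the epithelial content in the S100a14 differences was not tested.

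S100a16, another epithelial member, followed the same order of groups as S100a1 and S100a13 without a call. It stood at 0.33, 0.32, -0.89, -0.51 and -0.20 in adenomas and between -0.26 and 0.94 in carcinomas, with a median of 0.68. It ranged from -2.41 to 0.86 in disseminated cells with a median of -1.12, and stood at 0.74, 1.67, 0.09, -2.43 and -0.10 in metastases. The metastasis at -2.43 is replicate 4, the array low in luminal genes. Disseminated cells differed from carcinomas by a log2 change of -1.48 that missed the threshold (SE 0.565, adjusted p = 0.0591) and passed without carcinoma replicate 6 (log2 change -1.63, adjusted p = 0.0463) or disseminated replicate 6 (log2 change -1.85, adjusted p = 0.015).

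S100a1 and S100a13, the pair that starts back to back, were both highest in carcinomas and lowest in disseminated cells. S100a1 is known from heart muscle, and S100a13 takes part in the release of Fgf1 and Il1a, proteins without a signal peptide. S100a1 stood at 3.45, 3.43, 2.78, 2.88 and 2.70 in adenomas and ranged from 2.17 to 4.92 in carcinomas with a median of 4.21. It ranged from 1.73 to 3.43 in disseminated cells with a median of 2.70, and stood at 3.19, 4.06, 2.80, 2.46 and 3.0 in metastases. Carcinoma replicate 6, at 2.17, was the low array of its group. S100a1 fell 2.85-fold from carcinomas to disseminated cells (log2 change -1.51, SE 0.39, adjusted p = 0.00762). The change from adenomas to carcinomas was 1.01 (adjusted p = 0.114) and passed without carcinoma replicate 6 (log2 change 1.39, adjusted p = 0.00937), as did metastases against carcinomas (log2 change -0.95 with all arrays and -1.34 without it, adjusted p = 0.103 and 0.0044).

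S100a13 stood at 0.96, 1.22, 0.97, 1.25 and 0.66 in adenomas and between 1.46 and 2.03 in carcinomas, with a median of 1.60. It ranged from 0.46 to 0.87 in disseminated cells with a median of 0.64 and stood at 1.01, 2.05, 1.13, 0.75 and 1.16 in metastases. Carcinomas lay above every adenoma and every disseminated sample. S100a13 fell by 1.0 on the log2 scale from carcinomas to disseminated cells (SE 0.165, adjusted p = 0.000341), at the 2-fold limit. The call ended wherever the change came out smaller, as without carcinoma replicate 1 or 6 or disseminated replicate 3, 4 or 5 (changes of -1.0 to -0.93). It also ended with Aquantile, arrays not normalized to each other, or the deposited log2 ratios. The smallest change of any alternative was -0.82. The difference between adenomas and carcinomas passed the test but was smaller than 2-fold (log2 change 0.64, SE 0.173, adjusted p = 0.0222).

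Counted over the 10 members, the comparison of disseminated cells with carcinomas held the most calls, 6, against 11.6% of all genes (5.48% higher and 6.11% lower). S100a4 was higher and S100a1, S100a3, S100a10, S100a13 and S100a14 were lower, and the median change of the members was -1.13 against -0.07 over all genes. Metastases against adenomas held 4 calls (14.6% of all genes, 6.08% higher and 8.51% lower), with S100a10 and S100a14 higher and S100a6 and S100a11 lower. Metastases against disseminated cells held 3 (7.11% of all genes, 3.44% higher and 3.67% lower). Metastases against carcinomas held 0 calls by limma, where 10.1% of all genes were called, 4.73% higher and 5.34% lower. At an unadjusted p below 0.05 (limma) there were 6 of 10 members and 9753 of all 28786 genes. Under other settings the number of members called there was between 0 and 3, and it was 4 without carcinoma replicate 6 (S100a1, S100a6, S100a10 and S100a11). Comparisons that share a group share its arrays, so their calls are not independent.

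**Figure D3:**
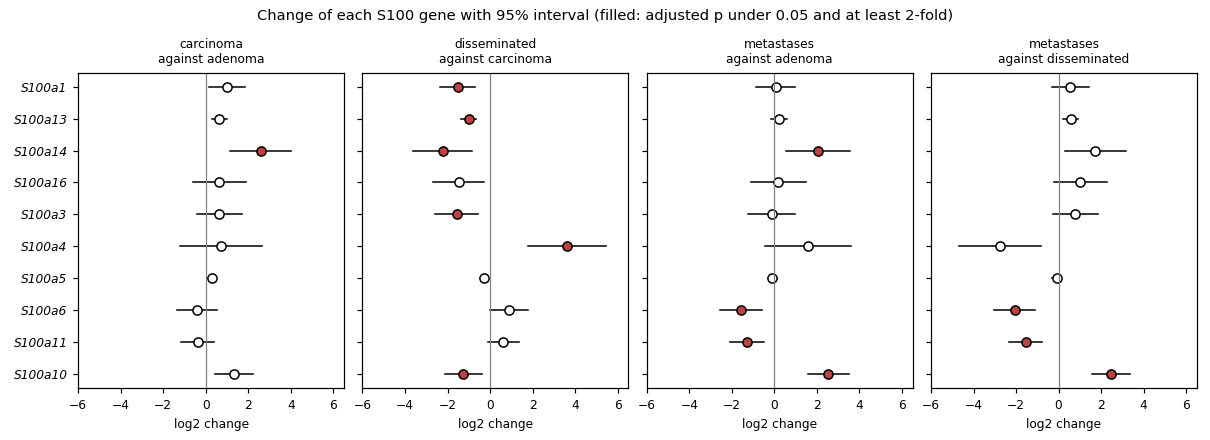
Log2 change of each S100 gene (x axis) in 4 comparisons of the progression experiment, ordered along chromosome 3 from S100a1 to S100a10, with lines for the 95% interval and filled points for genes that met both limits of the call. S100a4 rises by 3.61 from carcinomas to disseminated cells while 5 members fall, and S100a10 (2.46) changes opposite to S100a6 (-2.07) and S100a11 (-1.55) from disseminated cells to metastases.

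Partners and relatives of the S100 proteins were read from lists. Of 5 annexins, the membrane-binding partners of several S100 proteins, 4 were called higher in metastases than in adenomas and 0 lower, with a median change of 1.67 against 0.02 over all genes, of which 6.08% were called higher. Anxa2, the partner of S100a10, stood at -0.83, -0.73, -1.66, -1.47 and -1.25 in adenomas and at -0.36, 0.58, -0.04, 0.98 and 0.09 in metastases. The groups did not overlap, and Anxa2 rose 2.71-fold (log2 change 1.44, SE 0.253, adjusted p = 0.000386). Anxa1, a partner of S100a11 that limits inflammation, stood at 0.87, 0.60, -0.62, -0.72 and 0.28 in adenomas and at 4.75, 5.36, 4.11, 2.98 and 3.42 in metastases. Anxa1 rose 16.5-fold (log2 change 4.04, SE 0.692, adjusted p = 0.000305) while S100a11 fell. Against carcinomas, Anxa1 was 9.49-fold higher in metastases (adjusted p = 0.00217) and against disseminated cells 8.81-fold higher (adjusted p = 0.00413). Anxa11, which binds S100a6, was the 1 annexin called in disseminated cells, with a log2 change of 1.84 against adenomas (SE 0.264, adjusted p = 0.000277) and 1.65 against carcinomas (SE 0.252, adjusted p = 0.000183).

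Of 13 target genes, 6 were called higher and 1 lower in metastases than in adenomas, where 6.08% of all genes were called higher and 8.51% lower. The gene that fell was Myh9, the heavy chain of non-muscle myosin IIA and the best known target of the S100a4 protein. It stood at -0.66, -0.03, 0.27, -0.29 and -0.16 in adenomas and ranged from -2.37 to -0.64 in carcinomas, with a median of -1.60. It ranged from -1.32 to 0.43 in disseminated cells with a median of -0.41 and stood at -2.17, -2.29, -2.96, -3.26 and -1.81 in metastases. All metastases lay below every adenoma and every disseminated sample. Myh9 fell 5.02-fold from adenomas to metastases (log2 change -2.33, SE 0.345, adjusted p = 8.94e-05). It also fell from adenomas to carcinomas (log2 change -1.35, adjusted p = 0.0127), was higher in disseminated cells than in carcinomas (log2 change 1.04, adjusted p = 0.0192) and was lower in metastases than in disseminated cells (log2 change -2.02, adjusted p = 0.000735). The call against carcinomas in disseminated cells ended with the mean of its probes (log2 change 0.56), with median centring (0.92) and without carcinoma replicate 6 or disseminated replicate 2, 3 or 4 (0.85 to 0.96), and another probe gave -0.66 from adenomas to carcinomas. Between carcinomas and adenomas 1 of the 13 targets was called, where 3.31% of all genes were called, and between disseminated cells and carcinomas 2 were, both higher, against 5.48% of all genes. Il1a, a cytokine that S100a13 helps to release, was the largest rise of the list against adenomas. It was not well above background on any of 5 adenoma arrays, where its log2 ratios lay between 0.04 and 0.39. It was above background on all disseminated arrays, at 3.11 to 6.35, and on all metastasis arrays, at 2.06 to 6.20, and passed the test against adenomas in both (adjusted p = 0.00125 and 0.00108). The size of its change is not given as a fold, since the adenoma signals were not measured above background. Only carcinoma replicate 6 of the carcinomas had Il1a above background, the array high in macrophage genes and in S100a4. Ahnak, a scaffold that binds S100a10 with annexin A2, was 6.93-fold higher in metastases than in adenomas by its brightest probe (adjusted p = 0.00187), but another of its probes gave a log2 change of -2.11 (adjusted p = 3.99e-05), so its direction is uncertain.

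Among 3 receptors, Ager did not pass the test in any comparison. Its group means in the progression experiment lay between -0.16 and 0.26, and it was well above background on 2 of 5 adenoma arrays. Tlr4 was higher in disseminated cells than in carcinomas (log2 change 1.03, SE 0.239, adjusted p = 0.0039), the 1 receptor call of all comparisons. Its change was 0.52 with the mean of its probes, and the 2-fold limit was also missed without carcinoma replicate 2, 3 or 5 or disseminated replicate 2 (0.83 to 0.99). The list of relatives holds 5 further S100 genes and S100pbp, whose product binds S100P. S100a8 and S100a9, the subunits of calprotectin made by neutrophils and monocytes, were both higher in disseminated cells than in carcinomas and lower in metastases than in disseminated cells. For S100a9 the call in metastases was lost in 13 of 24 alternatives and that against carcinomas in 6 of 25, with changes as small as -1.52 and 1.41. For S100a8 the call against carcinomas was lost without carcinoma replicate 1 or 2 or disseminated replicate 2, 3 or 5 (log2 changes 1.74 to 1.93), and that in metastases when only the groups compared entered the fit. S100a9 stood between 7.02 and 9.0 in disseminated cells (median 8.72) and at 3.21, 4.60, 5.78, 2.88 and 2.33 in adenomas, a rise of 4.69 on the log2 scale (SE 0.849, adjusted p = 0.00145). For S100a8 that comparison gave no call (log2 change 0.99, adjusted p = 0.319). S100a8 was lower in metastases than in disseminated cells by a log2 change of -3.11 (SE 0.673, adjusted p = 0.00487). From adenomas to metastases S100a8 was called lower (log2 change -2.13, adjusted p = 0.0286), a call lost in 5 of 23 alternatives. S100a9 went the other way there without a call (log2 change 2.04, adjusted p = 0.0918). From adenomas to carcinomas their changes also differed in sign, at -1.05 and 2.16, and neither was called. The mean of 7 neutrophil genes lay between 2.15 and 4.55 in disseminated cells and between 1.01 and 1.37 in adenomas. In adenomas 4 of these genes (Elane, Ngp, Cxcr2 and Retnlg) were not well above background on any array, so that mean rests in part on background signal. The part of neutrophil RNA in the S100a8 and S100a9 results was not tested. S100b, the S100 protein of glia and of some immune cells, was lower in metastases than in carcinomas without overlap (log2 change -2.80, SE 0.635, adjusted p = 0.00432). Of 6 chromosome neighbors, genes that start within 100000 bases of a member, 1 was called in any comparison. It was Chtop, an RNA-export factor, which was higher in metastases than in adenomas (log2 change 1.10, adjusted p = 0.000203) and than in disseminated cells (log2 change 1.04, adjusted p = 0.000799). Of all genes 6.08% and 3.44% were called higher in these comparisons. The call against disseminated cells was lost without disseminated replicate 2, 3 or 4 or metastases replicate 2 or 3, at changes as small as 0.96.

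**Figure D4:**
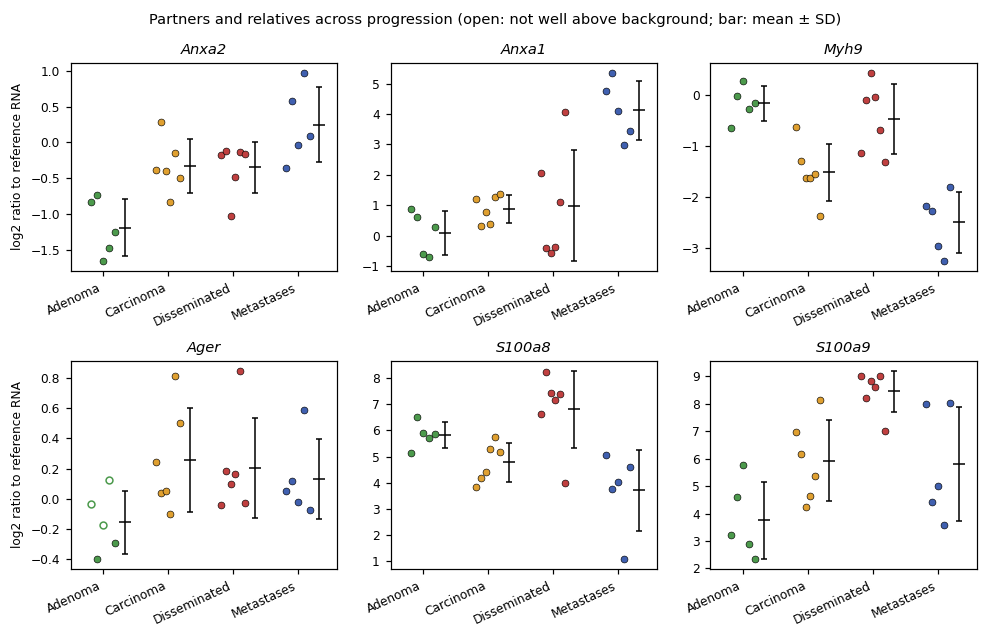
Log2 ratio to the reference RNA (y axis, scaled separately for each gene) of Anxa2, Anxa1, Myh9, Ager, S100a8 and S100a9 on each progression array, with open dots where the sample signal was not well above background and the mean ± SD beside each group. Anxa1 lies between 2.98 and 5.36 in metastases against -0.72 to 0.87 in adenomas, and Myh9 is lowest in metastases, from -3.26 to -1.81.

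No S100 gene passed the test in the chemotherapy experiment under the main processing. The 16 chemotherapy arrays were normalized separately, so levels are not set against those of the progression experiment. Untreated tumors lay on slides 1, 2 and 5, residual tumors on slides 2, 3 and 4 and relapsed tumors on slides 4 and 5. Slide and group can therefore be told apart only in part. No member was called in any of the 3 comparisons by limma, where 0.101% of all genes were called in residual against untreated tumors, 0.00347% in relapsed against untreated and 0.212% in relapsed against residual. Most of those genes were higher in residual tumors, 0.0973% of all genes in the first comparison and 0.208% in the last, where they count as lower in relapsed tumors. At an unadjusted p below 0.05 (limma) there were 4, 5 and 1 of 10 members, and 2611, 2200 and 2231 of all 28786 genes. All 10 members had a higher mean in the residual than in the untreated group, as did 48.9% of all genes. Their median change was 0.40 against 0.00 over all genes. The signs were not stable for every member. In some alternatives the changes of S100a3, S100a4, S100a6 and S100a14 fell below 0, to as low as -0.01, -0.03, -0.12 and -0.09. In relapsed tumors 9 of 10 members were higher than in untreated ones, as were 54.1% of all genes, with a median of 0.42 against 0.01. There the change of S100a5 ranged from -0.06 to 0.58 under the alternatives, and that of S100a4 from -0.30 to 0.54.

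S100a14 had the most ordered values. In untreated tumors it ranged from 2.94 to 4.10 with a median of 3.50, in residual tumors from 3.51 to 5.06 with a median of 4.33, and in relapsed tumors it stood at 5.30, 5.66, 4.66 and 4.51. All relapsed tumors lay above every untreated tumor. The difference was 2.91-fold but did not pass the test over all genes (log2 change 1.54, SE 0.29, unadjusted p = 7.19e-05, adjusted p = 0.139), with adjusted p between 0.0907 and 0.694 under the alternatives. The luminal gene list averaged 4.13 ± 0.17 (SD, n = 6) over untreated tumors and 4.22 ± 0.20 (SD, n = 4) over relapsed ones. S100a16 ranged from 0.17 to 1.02 in untreated tumors with a median of 0.34 and from 0.84 to 1.49 in residual tumors with a median of 1.0, and stood at 0.78, 1.08, 1.13 and 1.21 in relapsed tumors. Its change from untreated to residual tumors was 0.61 (SE 0.15, adjusted p = 0.149). Under the alternatives the change ran from 0.35 to 0.73 and the adjusted p from 0.0455 to 0.84. The lowest of these passed the test, but no change reached 2-fold.

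S100a3 lay between -0.15 and 0.17 in untreated tumors with a median of 0.01 and between 0.06 and 1.56 in residual tumors with a median of 0.35, and stood at 0.39, 2.54, 0.66 and 1.13 in relapsed tumors. Relapsed tumors again lay above every untreated tumor, and the log2 change of 1.17 (SE 0.36) had an adjusted p of 0.368. S100a10 ranged from -0.87 to -0.03 in untreated tumors (median -0.36) and from -0.13 to 0.24 in residual tumors (median 0.15), and stood at 0.16, 0.60, 0.03 and -0.24 in relapsed tumors, with a log2 change of 0.51 in residual tumors (SE 0.155, adjusted p = 0.298).

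S100a4, called in disseminated cells, had nearly equal means in the 3 chemotherapy groups, but untreated tumors fell into 2 sets. The untreated values were -5.37, -5.32 and -5.69 in replicates 1, 2 and 3 and -7.00, -7.01 and -7.01 in replicates 4, 5 and 6. Residual tumors ranged from -6.56 to -5.50 with a median of -6.21, and relapsed tumors stood at -6.42, -6.15, -5.76 and -6.72, all within the range of the untreated ones. The change was 0.12 in residual tumors (95% interval -0.60 to 0.84, adjusted p = 0.944) and -0.03 in relapsed tumors (95% interval -0.83 to 0.77, adjusted p = 0.997). S100a6 divided the untreated tumors in the same way, with -1.79, -2.51 and -2.25 in the first 3 replicates and -3.56, -3.93 and -3.58 in the others. S100a6 ranged from -2.76 to -1.73 in residual tumors with a median of -2.28 and stood at -1.83, -0.91, -1.45 and -2.57 in relapsed tumors (log2 change 1.24 against untreated, SE 0.397, adjusted p = 0.383). For S100a1, S100a10 and S100a13 the first 3 untreated replicates also lay above the others, but without so clear a gap. S100a1 stood at 1.62 in replicate 3 and 1.58 in replicate 4, against 0.89 and 1.05 in replicates 5 and 6. The macrophage list was high in the same untreated tumors, at 1.13, 1.78 and 1.14 in replicates 1, 2 and 3 and -0.78, -0.76 and -0.56 in the others. Slide 1 held untreated replicates 2 and 3 of the first set and 4 and 5 of the other, while replicate 1 lay on slide 2 and replicate 6 on slide 5. The part of macrophage RNA in these values was not tested. The genes most like S100a4 over the 16 arrays were Crlf2 (Pearson r = 0.936), Auts2 (r = 0.934) and Rac2 (r = 0.932), among 13312 genes, a description of arrays that share the reference RNA and these sets.

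The other members changed by at most 0.29 on the log2 scale. S100a1 had group means of 1.47, 1.65 and 1.76 in untreated, residual and relapsed tumors, S100a11 of -0.59, -0.30 and -0.39, and S100a13 of 0.71, 0.98 and 0.89. S100a5 was not well above background on any of 6 untreated arrays, and was on 4 of 6 residual and 2 of 4 relapsed arrays, and neither group differed from untreated tumors past the threshold (adjusted p = 0.487 and 0.891). Of the 27 annexins, receptors, targets and relatives, 0 were called by limma in the 3 comparisons, with 4 at an unadjusted p below 0.05 in residual against untreated tumors, 4 in relapsed against untreated and 1 in relapsed against residual tumors. Of all 28786 genes, 2611, 2200 and 2231 were below that p in the same order.

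**Figure D5:**
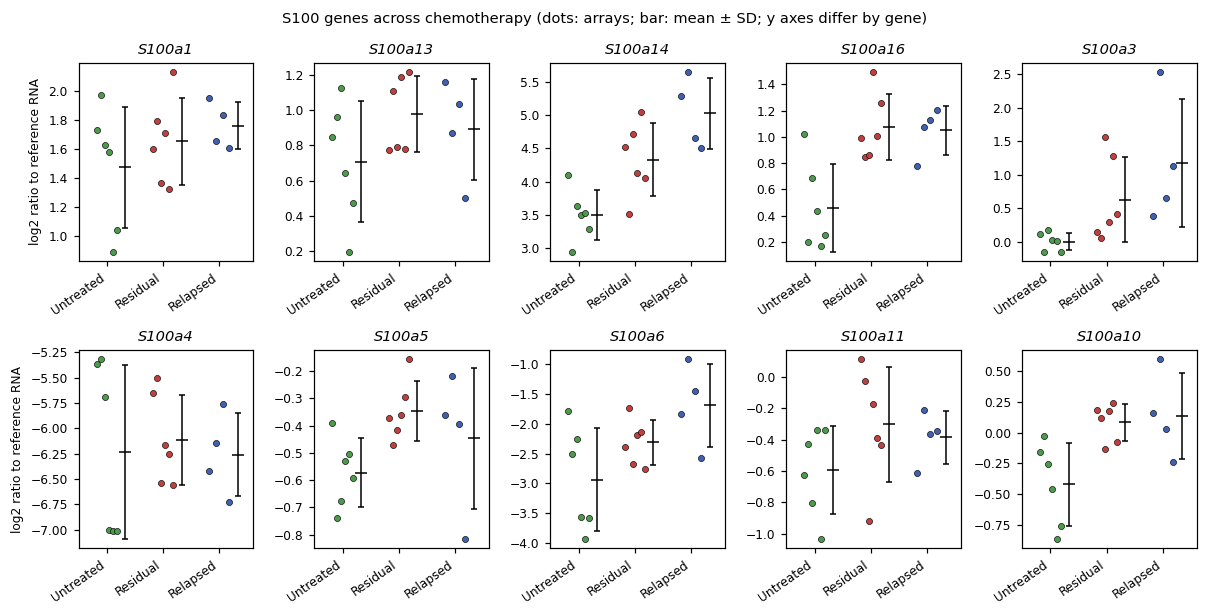
Log2 ratio of each of the 10 S100 genes to the reference RNA (y axis, scaled separately for each gene) on each chemotherapy array (dots), grouped as untreated (n = 6), residual (n = 6) and relapsed (n = 4) tumors, with the mean ± SD beside each group. S100a14 means are 3.49, 4.33 and 5.03, and the untreated tumors divide into 2 sets of 3 most widely for S100a4 and S100a6.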

How the data were processed

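RNA of sorted GFP-positive cells was hybridized to 38 Agilent two-color arrays, 22 for progression and 16 for chemotherapy. Progression RNA was amplified in more rounds than chemotherapy RNA, so the experiments were kept apart. The authors deposited scanner intensity values (Agilent Feature Extraction 10.7) for 45018 spots an array, 43379 of them not controls, and a matrix of log2 ratios, which served as an alternative. No dyes were swapped, so a dye effect specific to a gene remains in its level but is shared by all groups.

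Intensities were corrected with normexp (offset 50), normalized by loess within arrays and by quantiles between arrays of an experiment, and averaged over spots of a probe (limma 3.58.1, R 4.3.3). Each gene was represented by its brightest probe, and 22951 of 41174 probes were matched to the RefSeq table, the others keeping the file's name. All groups of an experiment entered 1 limma fit without covariates, and p-values were adjusted by Benjamini-Hochberg over 28786 genes. Calls needed an adjusted p under 0.05 together with a 2-fold change. The number of arrays limits the precision. The fit was also run on simulated data with independent noise for each gene. Those data held no slide, scan day or cell mixture effects, so that run cannot speak to these.

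Every member was named. Of the partner lists (annexins, receptors, targets, S100 relatives and chromosome neighbors), genes of known importance to the members and the largest called changes were named. The members, the partner lists and the marker lists were chosen with earlier results of these data known. Alternatives changed the background correction, normalization, starting values, dim-probe filter, probe choice, slide and replicate blocks, samples in the fit and fold limit, and left out each replicate. Same-numbered replicates did not deviate together (median correlation of deviations -0.0162 over 31 pairs in progression and 0.0383 over 14 pairs in chemotherapy), so the numbers were not taken as pairs.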

Additional observations from a re-analysis of the deposited data

Results flagged for a closer look

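Single arrays stood far from the rest of their group for 3 members, out of 70 combinations of gene and group examined, of which chance marks about 1 in 20. S100a1 stood at 2.17 in carcinoma replicate 6, below the other carcinomas at 4.09 to 4.92. S100a4 stood at -0.42 on the same array, above the other carcinomas at -6.10 to -5.01. S100a3 stood at 4.31 in metastases replicate 5, above the other metastases at 0.70 to 0.93. The macrophage list mean was 4.56 in carcinoma replicate 6 and 0.78 in metastases replicate 5, and its part in these values was not tested.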

How the results depend on the processing

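Of 15 calls of S100 genes, 7 held in every alternative that could be run for them: S100a4 in disseminated cells against adenomas (log2 change 3.93 to 5.04) and carcinomas (3.20 to 4.49), S100a10 in metastases against adenomas (2.25 to 2.70) and disseminated cells (2.05 to 2.73), S100a1 in disseminated cells against carcinomas, S100a6 in metastases against adenomas and S100a11 in metastases against disseminated cells. In progression, slide as a fixed block could be fitted only for disseminated cells against adenomas and metastases against carcinomas. Of these calls, only that of S100a4 against adenomas was therefore put to it. The run with no minimum fold could not lose a call. The other 8 were lost in at least 1 alternative, S100a14 in disseminated cells against carcinomas only without quantile normalization between arrays or with Aquantile. Of 29 calls of named partners, those of Chtop not included, 16 held in every alternative that could be run for them. Metastases against carcinomas, with 0 members called, gave 1 with a normexp offset of 0, median centring within arrays, dim probes left out, the deposited log2 ratios, slide as a random block or no minimum fold. It gave 2 with processed signals, slide as a fixed block or only the groups compared, and 3 with the replicate block (S100a6, S100a10 and S100a11). The replicate numbers do not pair the samples, and 1 of 22 progression and 6 of 16 chemotherapy arrays correlated best with their own number. Carcinomas against adenomas, with 1 call, gave 2 with dim probes left out, only the groups compared or no minimum fold. Leaving out single replicates gave 0 (without adenoma replicate 2) to 2 (without carcinoma replicate 4 or 6) calls in that comparison, 0 to 4 in metastases against carcinomas (4 without carcinoma replicate 6, 2 without metastases replicate 5 and 1 without metastases replicate 2), 3 to 6 in metastases against disseminated cells (6 without metastases replicate 4 and 5 without disseminated replicate 6) and 4 to 8 in disseminated cells against carcinomas. Disseminated cells against adenomas kept 1 call throughout. Another probe of Ahnak turned its change in metastases to -2.11 against adenomas, -1.32 against carcinomas and -1.46 against disseminated cells. The share of called genes that were higher moved from 35.2% to 48.8% in carcinomas against adenomas (processed signals), from 44.2% to 57.9% in disseminated cells against adenomas (no normalization between arrays), from 41.7% to 53.6% in metastases against adenomas and from 47.0% to 57.5% in metastases against carcinomas (deposited log2 ratios), and from 47.3% to 57.6% in disseminated cells against carcinomas (Aquantile). The causes were not tested. Members with 1 probe cannot be checked against a further probe, and signals near background, as for S100a5 in chemotherapy, limit what can be measured.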
